A study of Mus musculus with 6 samples.

Results

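The genes described here assemble antigen receptors or mark immature lymphocytes, and were chosen by name: Rag1, Rag2, Dntt, Ptcra, Arpp21, Endou, Mns1, Aqp11, Vpreb1 and Igll1. Of these 10 genes, 9 had a row among the 21965 genes of the expression table, and Vpreb1 is not analysed here. The study sequenced RNA of 6 mouse samples labelled as lung tissue, 3 Aa-cko and 3 Aa-flox. The labels do not expand Aa, and give neither the deleted gene nor a strain, age, treatment or sort; the series title names group 2 innate lymphoid cells, ferroptosis, alpha tocopherol and Lkb1, so the comparison asks how expression differs with the deletion that cko stands for. Values are FPKM, that is fragments corrected for the length of a gene and the size of a library, so that levels can be compared between genes. The labels do not say whether replicates came from separate animals, so the p-values rest on a spread between samples that may be technical.

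V(D)J recombination joins variable, diversity and joining segments into antigen receptor genes. RAG1 and RAG2 together form the recombinase that cuts the DNA beside the segments, terminal deoxynucleotidyl transferase (Dntt) adds untemplated bases at the junctions, and the end joining enzymes of general DNA repair seal the breaks. T cell precursors in the thymus pair a new beta chain with the pre-T receptor alpha chain (Ptcra). B cell precursors in the bone marrow pair a new heavy chain with the surrogate light chain, made of the Vpreb and Igll1 proteins. The lung is not known as a main site of either process.

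The libraries as a whole set the scale for what follows. Depth, read from the spacing of low FPKM values, came to 14.2 to 17.5 M fragments per library, and at these depths 42.7 to 44.5% of low values not used in the search lay within 0.1 of a whole fragment (20% by chance). Stk11, the gene of the kinase LKB1, read 62.7, 61.7 and 53.7 FPKM in Aa-cko and 64.1, 55.8 and 51.8 FPKM in Aa-flox, and did not pass the test (log2 fold change 0.05 ± 0.11 SE, limma adjusted p = 0.721). The directions below therefore rest on the labels alone. Genes were tested where 3 or more libraries reached 1 FPKM. Of these 10849 genes, 2087 (45.3% of those called) were higher and 2515 (54.7%) lower in Aa-cko at an adjusted p under 0.05. Upper quartile scaling turned that split to 2485 higher (55.6%) and 1987 lower. The share called was 42.4% of all tested genes, with 23.2% lower and 19.2% higher.

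Of the 7 members that reached the filter, 5 were lower in Aa-cko (Rag2, Dntt, Arpp21, Endou and Mns1), 0 were higher, and Rag1 and Aqp11 did not pass. Beside this count, 23.2% of all tested genes were lower. The median log2 fold change of the 7 tested members was -0.61, against -0.05 over all tested genes. In the 5 lower genes the 3 Aa-cko values all lay below the 3 Aa-flox values, as they did for 29.6% of tested genes. Ptcra and Igll1 stayed under the filter, and the surrogate light chain was thus not tested at all.

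**Figure D1:**
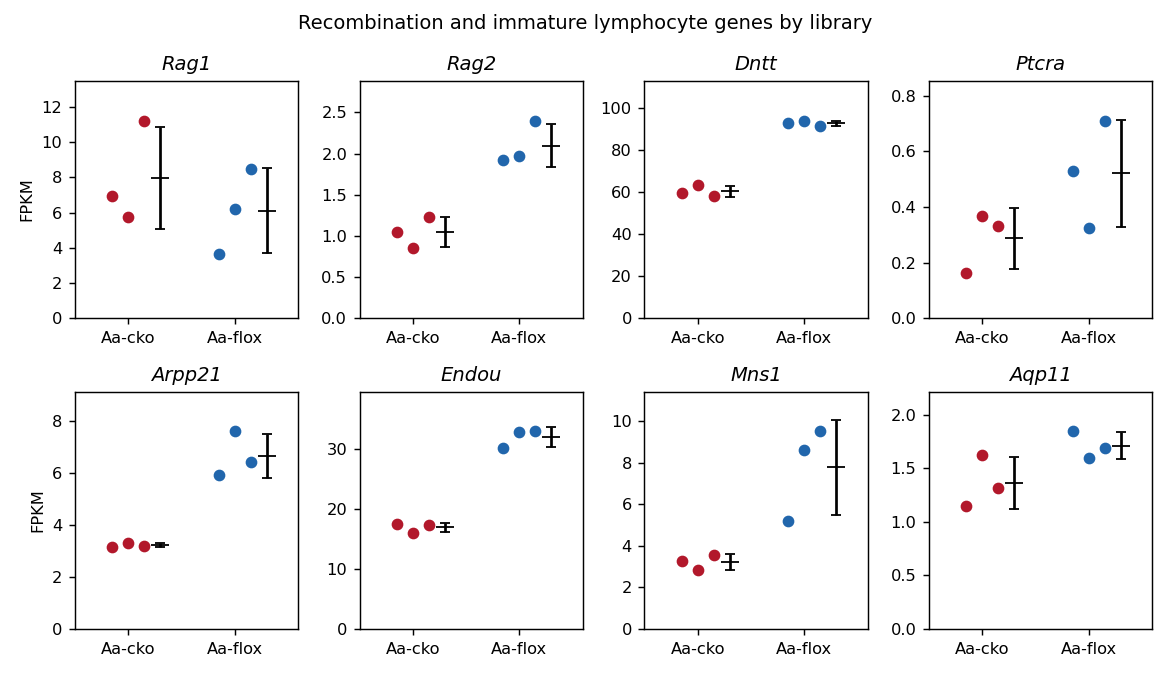
FPKM (y axis, from 0, a separate scale for each gene) of the 8 members with values above 0, in 3 Aa-cko and 3 Aa-flox libraries (x axis). Points are libraries in the order of replicates 1 to 3, and the bars beside them give mean and SD. The groups overlap for Rag1, Ptcra and Aqp11, and the Aa-cko points lie below the Aa-flox points for the other 5.

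Of the recombinase genes, Rag2, the cofactor, was lower in Aa-cko and Rag1, the catalytic subunit, did not pass. Rag1 (ENSMUSG00000061311) lies on chromosome 2 from 101638282 to 101649501 on the minus strand of mm10, and Rag2 (ENSMUSG00000032864) from 101624718 to 101632529 on the plus strand, so the genes point at each other across 5752 bases. Their promoters are shown because the genes share a locus but not a call, beside those of Dntt and Mns1, which were lower as Rag2 was. Each sequence runs from 250 bases before to 50 bases after a RefSeq start site on GRCm38.p6, the assembly of mm10, and capitals mark E-boxes, the CANNTG motif bound by E proteins.
Rag1, chr2:101649483-101649782, minus strand: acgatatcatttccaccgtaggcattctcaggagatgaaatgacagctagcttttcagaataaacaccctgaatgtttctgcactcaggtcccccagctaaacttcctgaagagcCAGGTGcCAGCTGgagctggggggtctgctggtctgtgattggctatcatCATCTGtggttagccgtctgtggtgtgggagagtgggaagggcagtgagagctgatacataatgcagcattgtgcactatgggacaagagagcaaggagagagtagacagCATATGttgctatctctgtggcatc
Rag2, chr2:101624462-101624761, plus strand: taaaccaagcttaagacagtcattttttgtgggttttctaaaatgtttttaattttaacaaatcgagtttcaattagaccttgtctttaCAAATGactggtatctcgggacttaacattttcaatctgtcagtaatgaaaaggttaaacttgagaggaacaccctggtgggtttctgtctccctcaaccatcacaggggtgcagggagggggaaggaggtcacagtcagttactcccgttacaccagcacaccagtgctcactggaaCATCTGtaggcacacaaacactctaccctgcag
Dntt, chr19:41029025-41029324, plus strand: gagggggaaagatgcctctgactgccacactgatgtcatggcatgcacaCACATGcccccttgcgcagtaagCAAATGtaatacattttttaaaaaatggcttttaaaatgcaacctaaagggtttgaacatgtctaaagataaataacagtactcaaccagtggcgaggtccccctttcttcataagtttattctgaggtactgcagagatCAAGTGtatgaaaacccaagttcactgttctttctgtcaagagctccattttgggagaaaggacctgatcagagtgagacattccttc
Mns1, chr9:72438279-72438578, plus strand: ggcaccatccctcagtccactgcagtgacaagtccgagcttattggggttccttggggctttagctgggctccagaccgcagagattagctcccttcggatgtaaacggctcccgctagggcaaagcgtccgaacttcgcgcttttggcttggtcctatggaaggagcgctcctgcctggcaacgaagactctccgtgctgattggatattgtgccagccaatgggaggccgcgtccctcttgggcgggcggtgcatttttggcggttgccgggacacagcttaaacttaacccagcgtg

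The Rag1 window held 4 E-boxes (2 of them CAGGTG and CAGCTG side by side), the Rag2 window 2, the Dntt window 3 and the Mns1 window 0. The motif reads on both strands. It is common: 72.3% of the 32851 promoter windows of the same length held at least 1, 39.6% at least 2, 17.6% at least 3 and 6.49% at least 4. The Ikaros core TGGGAA, searched on both strands, occurred once (1 match) in the Rag1 window and in none of the other 3 windows, against 25.6% of all windows with at least 1. These are matches of letters, and none was tested for binding. Of the 10 members, 9 had an entry in the promoter table, and Endou had none.

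Rag1 read 6.92, 5.73 and 11.2 FPKM in Aa-cko, against 3.65, 6.22 and 8.46 FPKM in Aa-flox. The groups overlapped, and the highest library of each was replicate 3. Its log2 fold change, 0.35 ± 0.27 (SE), had limma adjusted p = 0.334 and a 95% interval of -0.27 to 0.96. Rag1 can thus have been lower by up to 0.27 or higher by up to 0.96 on this scale. Leaving out Aa-flox replicate 1 lowered the difference to 0.07, and leaving out Aa-cko replicate 3 lowered it to 0.10.

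Rag2 read 1.05, 0.856 and 1.23 FPKM in Aa-cko, against 1.92, 1.97 and 2.40 FPKM in Aa-flox. Every Aa-cko library lay below every Aa-flox library, and the mean in Aa-cko was 0.498 times that in Aa-flox. With 49.3 to 68.6 inferred fragments per Aa-cko library and 106 to 144 per Aa-flox library, Rag2 was the most thinly covered of the tested members. The log2 fold change was -0.60 ± 0.14 (SE, adjusted p = 0.0062) on log2(FPKM + 1), which understates low genes, and -0.95 with a pseudocount of 0.1.

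The FPKM of Rag1 was 6.58, 6.70 and 9.15 times that of Rag2 in Aa-cko, and 1.90, 3.15 and 3.52 times in Aa-flox. The 3 Aa-cko ratios all exceeded the Aa-flox ratios. On the log2(FPKM + 1) scale the Rag1 minus Rag2 difference was larger by 0.95 in Aa-cko, with SDs between libraries of 0.32 in Aa-cko and 0.42 in Aa-flox. The exact two-sided permutation test gave p = 0.1, the smallest that 3 against 3 libraries allow, and 0.15 adjusted over 6 pairs of members, which were chosen after their values were seen. With a pseudocount of 0.1 this difference was 1.34.

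The libraries also differed in how long transcripts read, in the same order as Rag1. Among 4547 tested genes with at least 5000 bases of exon, the median deviation from the group mean was 0.02, -0.13 and 0.12 (log2) in Aa-cko replicates 1 to 3, and -0.06, -0.03 and 0.08 in Aa-flox. Rag1, with 6608 bases of exon, ranked its libraries in that same order within each group. With a trend on exon length removed from each library, a setting added after the data were seen, Rag1 kept a log2 fold change of 0.47 (adjusted p = 0.128), and the Rag1 minus Rag2 difference was 1.06. By the rule for likeness, the 5 genes with the highest Pearson correlation to Rag1 over the 6 libraries were Zeb2 (0.998), Usp53 (0.993), Bmp2k (0.989), Lman1 (0.989) and Dennd1b (0.988). All 5 had exon lengths of 8480 to 19942 bases and none passed the test between groups. The libraries behind these correlations share depth and this length trend.

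Iftap, a gene on the minus strand whose annotated span covers both Rag genes, read 2.0, 2.43 and 2.24 FPKM in Aa-cko and 2.60, 4.03 and 3.54 FPKM in Aa-flox, and was lower (adjusted p = 0.0442). Whether counting used strand is not given in the sources used here, so reads in shared stretches cannot be assigned to one gene with certainty.

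Dntt, the enzyme that adds bases at the junctions, was by far the most abundant member. It lies on chromosome 19 from 41029275 to 41059525 (plus strand, mm10, ENSMUSG00000025014). It read 59.5, 63.4 and 58.0 FPKM in Aa-cko, against 92.6, 94.0 and 91.6 FPKM in Aa-flox. Replicates lay close together, and the gap between groups was many times their spread: 60.3 ± 2.75 FPKM in Aa-cko and 92.7 ± 1.21 FPKM in Aa-flox (mean ± SD, n = 3 each). This is a log2 fold change of -0.61 ± 0.09 (SE, 95% interval -0.81 to -0.41, limma adjusted p = 0.000636).

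In a library with this much Dntt, the recombinase genes were low. The FPKM of Rag1 was 0.0905 to 0.193 times that of Dntt in Aa-cko and 0.0394 to 0.0923 times in Aa-flox, which overlap. That of Rag2 was 0.0135 to 0.0211 times in Aa-cko and 0.0207 to 0.0262 times in Aa-flox. The Rag2 minus Dntt difference on log2(FPKM + 1) was larger by 0.01 in Aa-cko, with SDs of 0.19 in Aa-cko and 0.13 in Aa-flox (exact permutation p = 0.9). The ratio of means, which carries no pseudocount, was 0.498 for Rag2 and 0.650 for Dntt. Over the 6 libraries the genes most like Dntt were Asns (Pearson 0.999), Bfar (0.998), Eif2s2 (0.998), Cdca4 (0.998) and Rpusd4 (0.998), all lower in Aa-cko. As 698 genes exceeded a correlation of 0.95, these genes do not stand apart.

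Among genes of T cell precursors, Ptcra was barely detected. The gene of the pre-T receptor alpha chain stood at 0.163, 0.369 and 0.332 FPKM in Aa-cko and 0.528, 0.323 and 0.711 FPKM in Aa-flox. These values correspond to 3, 8 and 7 inferred fragments in Aa-cko, and 11, 7 and 16 in Aa-flox. The groups overlapped (exact permutation p = 0.3, two-sided, smallest possible 0.1), and a difference was not detectable with these counts and 3 libraries a group. Every tested member was read at a higher FPKM than Ptcra in each of the 6 libraries.

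Endou, which encodes a uridylate-specific endoribonuclease and is used as a thymocyte marker, had the smallest p among the members. It read 17.4, 16.0 and 17.4 FPKM in Aa-cko, against 30.1, 32.9 and 33.0 FPKM in Aa-flox. Both groups were tight, and the log2 fold change was -0.88 ± 0.10 (SE, adjusted p = 0.000191). Its FPKM was 0.253 to 0.30 times that of Dntt in Aa-cko and 0.325 to 0.360 times in Aa-flox.

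Arpp21, a cAMP-regulated phosphoprotein gene that is high in thymocytes, read 3.15, 3.30 and 3.19 FPKM in Aa-cko, against 5.92, 7.59 and 6.40 FPKM in Aa-flox. The Aa-cko mean was 0.484 times the Aa-flox mean, and the log2 fold change was -0.85 ± 0.13 (SE, adjusted p = 0.000866). The gene spans 112065091 to 112235938 on chromosome 9 (minus strand) and shares its span with 2 long noncoding RNA genes and a microRNA gene.

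Mns1, a structural protein of motile cilia and of meiotic nuclei that is also read in thymocytes, stood at 3.25, 2.83 and 3.58 FPKM in Aa-cko and 5.18, 8.63 and 9.51 FPKM in Aa-flox. It had the largest fold change of the members (log2 -1.02 ± 0.20 SE, adjusted p = 0.00273), and Aa-flox replicate 1 lay well below the other 2 libraries of its group. Of 4 tested markers of ciliated cells, Ccdc153, Tppp3 and Mlf1 were higher in Aa-cko and 0 were lower. As a share of all tested genes, 19.2% were higher and 23.2% lower. For Ccdc153 the values of the groups overlapped. Foxj1, the factor that drives the motile cilium program, did not pass. The other 8 listed genes were not tested. The summed level over the 12 listed genes, of which 11 had a row, was 23.2 to 36.8 FPKM in Aa-cko and 13.1 to 15.9 FPKM in Aa-flox. Most of this sum was Tppp3 alone, at 14.6 to 26.7 FPKM in Aa-cko and 9.39 to 10.1 FPKM in Aa-flox. Which cells gave the fall in Mns1 was not tested. Tex9, a gene on the opposite strand that overlaps Mns1, did not pass (adjusted p = 0.494).

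Aqp11, an aquaporin of intracellular membranes, read 1.15, 1.62 and 1.32 FPKM in Aa-cko and 1.85, 1.6 and 1.69 FPKM in Aa-flox. Aa-cko replicate 2 lay within the Aa-flox range, and the log2 fold change of -0.20 ± 0.13 (SE) did not pass (95% interval -0.50 to 0.09, adjusted p = 0.244).

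Of the B-lineage members, Igll1 alone had a row. Igll1, which encodes lambda 5, the constant-like part of the surrogate light chain, was listed at 0 in all 6 libraries. At the inferred depth, 3 fragments of this gene would equal 0.0792 to 0.0974 FPKM, the limit that a count of 0 allows for counting error only. Its row lies on chromosome 16 from 16860671 to 16863985. Other B-lineage genes were present and higher in Aa-cko. Vpreb3, a relative of the surrogate light chain genes that is also expressed beyond the pre-B stage, read 3.24, 4.22 and 3.99 FPKM in Aa-cko and 1.18, 1.99 and 1.28 FPKM in Aa-flox (log2 0.97 ± 0.16 SE, adjusted p = 0.00132).

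The lists of neighbouring cell stages put the members in context. Of 11 tested pro-B and pre-B genes besides the members, 9 were higher, 1 lower (Sox4, log2 -1.73, a factor that thymocytes also use) and 1 did not pass. The median was 0.99, the value of Il7r, which is also in the mature T cell list and counted as higher in both. Cd79b and Blnk, of the B cell receptor complex and its signalling, rose by log2 1.23 ± 0.15 and 1.04 ± 0.11 (SE). Mature B cells share these genes, and all 10 tested mature B genes were also higher (median 1.06), led by Cd22, Ighd and Fcrla. Mme, a marker of B cell precursors (CD10 in human), read between 0 and 0.05 FPKM. Cd93, the gene of the pro-B and pre-B list that did not pass, read 6.2 to 7.8 FPKM in Aa-cko and 7.0 to 8.1 FPKM in Aa-flox. In bulk RNA, fewer cells of a type and less RNA per cell cannot be told apart.

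Genes high in CD4+CD8+ thymocytes went mostly with the T-lineage members. Of 17 tested, 10 were lower, 2 higher and 5 did not pass, with a median of -0.60. As a share of all tested genes, 23.2% were lower and 19.2% higher. Cd4 fell to 21.8 ± 4.34 FPKM in Aa-cko, against 63.9 ± 3.94 FPKM in Aa-flox (SD, n = 3 each), and Cd8a to 28.0 ± 1.90 against 55.7 ± 3.02. The largest falls were those of Ccr9, the receptor of the thymic chemokine CCL25 (log2 -2.42 ± 0.16), and Tespa1, a thymocyte signalling protein (-2.39 ± 0.20), and Ly6d fell by 1.08. Ets2 and Slamf6 were the 2 that rose, by log2 0.66 and 0.37. Most of these genes are also expressed by mature T cells, whose list had 11 lower, 5 higher and 2 not past of 18 tested (median -0.75). In the same libraries cell cycle genes fell (15 of 15 lower, median -0.81) and macrophage genes rose (10 of 10 higher, median 1.17). The part of these shifts in the members' values was not tested.

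**Figure D2:**
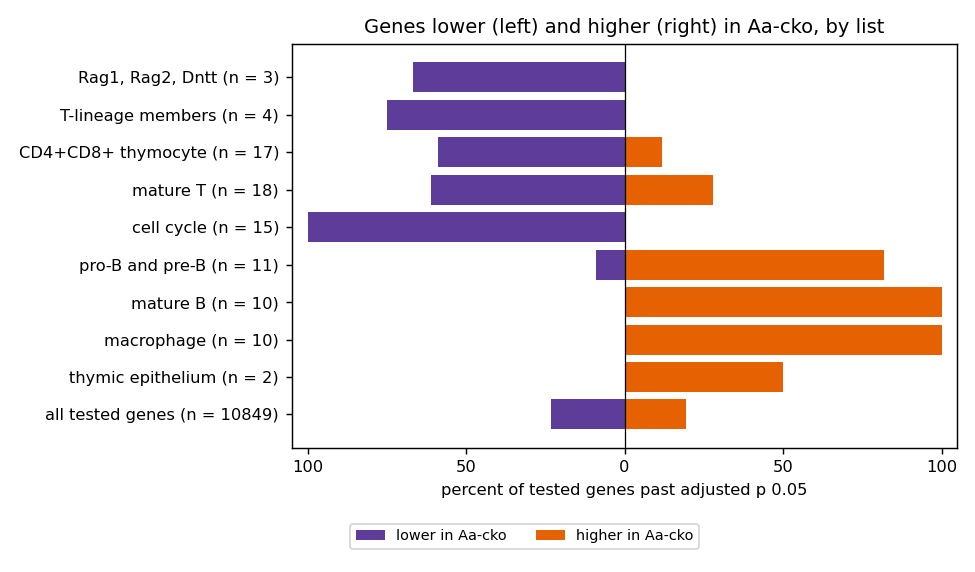
Percent of tested genes past an adjusted p of 0.05 in each list (x axis), lower in Aa-cko to the left and higher to the right, with the number tested in brackets. Thymocyte, mature T and cell cycle lists lie mostly to the left, pro-B, mature B and macrophage lists to the right, and all tested genes give 23.2% and 19.2%.

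Thymic epithelial genes were low, and the defining factors were at or near 0. Foxn1, the master factor of this epithelium, read 0 to 0.08 FPKM, Psmb11, its thymoproteasome subunit, 0 to 0.04, and Aire, its autoantigen regulator, 0 to 0.09 over the 6 libraries. Prss16, a thymus-specific protease gene, read 0.424 to 0.856 FPKM in Aa-cko and 0.185 to 0.575 FPKM in Aa-flox, and Dll4, a Notch ligand that vessels also express, 0.411 to 0.672 FPKM in Aa-cko and 0.609 to 0.985 FPKM in Aa-flox. Of the 9 listed genes only Ccl25 (not past) and Krt8 (higher, a general epithelial keratin) reached the filter, and the summed level was 4.67 to 7.70 FPKM in Aa-cko and 4.38 to 4.78 FPKM in Aa-flox. Set beside the lung label, alveolar type 2 genes were low, and club cell and alveolar macrophage genes ranged from low to high. Sftpc, the surfactant protein C gene of alveolar type 2 cells, read 2.47 to 4.49 FPKM in Aa-cko and 2.23 to 4.58 FPKM in Aa-flox. Scgb1a1, the club cell secretoglobin, was present at 126 to 167 FPKM in Aa-cko and 111 to 138 FPKM in Aa-flox. Scgb3a2, another club cell gene, read 2.8 to 5.1 FPKM in Aa-cko and 2.0 to 4.0 FPKM in Aa-flox. Among macrophage genes that alveolar macrophages express, Chil3 read 5552 to 7609 FPKM in Aa-cko and 2316 to 2714 FPKM in Aa-flox. Marco read 53.2 to 63.8 FPKM in Aa-cko and 20.2 to 29.3 FPKM in Aa-flox. Siglecf was far lower than Chil3, at 5.54 to 6.79 FPKM in Aa-cko and 2.24 to 2.58 FPKM in Aa-flox.

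The members were also set beside the CD3 genes of each library, as a measure of its T cell RNA. The mean log2(FPKM + 1) of Cd3d, Cd3e and Cd3g, the CD3 chains of the T cell receptor complex, was lower by 0.36 in Aa-cko, although of these Cd3e fell (log2 -0.71) and Cd3d (-0.28) and Cd3g (-0.10) did not pass. Relative to that mean, Endou, Mns1 and Arpp21 were lower, by 0.52 ± 0.14, 0.66 ± 0.22 and 0.49 ± 0.18 on the log2 scale (SE). In a limma fit over all genes on these relative values, added after the data were seen, they had adjusted p of 0.00808, 0.024 and 0.032, beside 5.89% of all genes called lower. Dntt and Rag2 were lower by 0.25 and 0.24 and did not pass (adjusted p = 0.114 and 0.292).
Rag1 was higher by 0.71 ± 0.30 relative to the CD3 genes and did not pass (adjusted p = 0.0754), where 41.4% of all genes were called higher. Exact permutation tests gave p = 0.1 for Endou, Arpp21 and Dntt, the smallest possible here, 0.2 for Mns1, Rag2 and Rag1, 0.3 for Ptcra and 0.4 for Aqp11. These differences depended on the genes that stand for T cell RNA, as 2 other sets, added after the data were seen, showed. The mean of Trac, Trbc1 and Trbc2, the constant segments of the T cell receptor, was lower by 0.99 in Aa-cko. Relative to it Endou, Arpp21 and Mns1 differed by 0.11, 0.14 and -0.03 and did not pass (limma adjusted p = 0.569, 0.534 and 0.907), where 85.1% of all genes were called higher and 0.839% lower. Dntt, Aqp11 and Rag1 were among the genes called higher, by 0.38, 0.79 and 1.33 (limma adjusted p = 0.0241, 0.00198 and 0.00292), and Rag2, at 0.39, did not pass (0.112). The mean of all 18 mature T cell genes was lower by 0.29, and relative to it Endou, Arpp21, Mns1 and Dntt were lower by 0.59, 0.57, 0.74 and 0.33 (limma adjusted p = 0.00262, 0.0123, 0.0181 and 0.0227), where 37.1% of all genes were called higher and 8.24% lower. Rag1, Rag2 and Aqp11 did not pass relative to it.

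**Figure D3:**
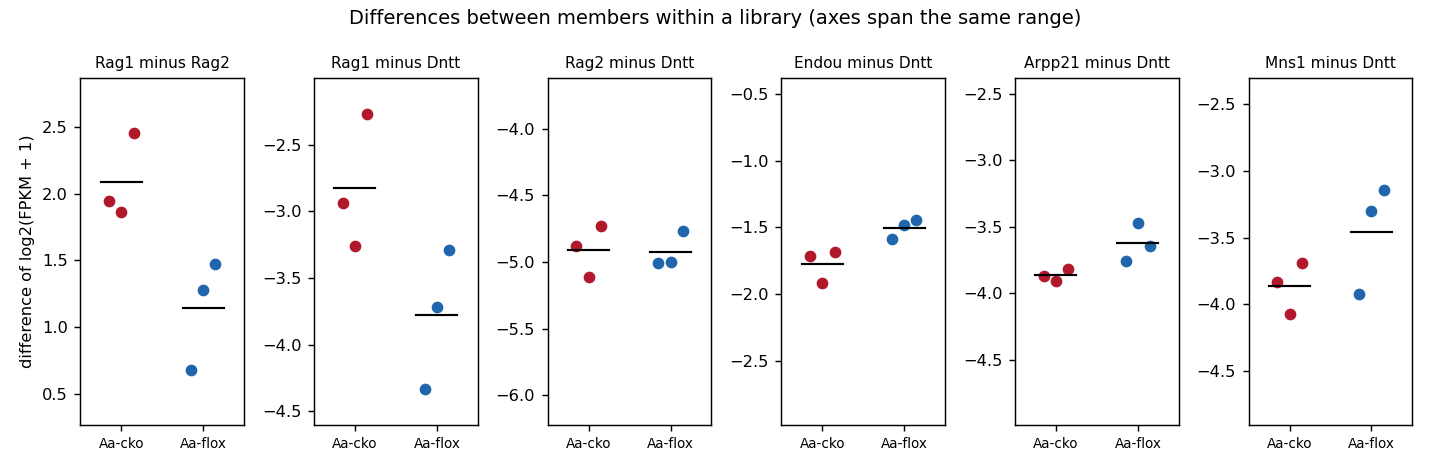
Difference of log2(FPKM + 1) between the named pair of members (y axis, each spanning the same range) in 3 Aa-cko and 3 Aa-flox libraries (x axis); points are libraries and lines are group means. Rag1 against Rag2 lies higher in Aa-cko without overlap, Rag1 against Dntt does so on this scale but overlaps as a ratio of FPKM, and Rag2 against Dntt overlaps.

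The rest of the V(D)J pathway and its regulators were read from lists of known factors. Of 12 tested genes of end joining and its cofactors, 4 were lower, 1 higher and 7 did not pass. The list median was -0.17. Over all tested genes 42.4% were called, 23.2% lower and 19.2% higher, so this list was called about as often as genes at large. Dclre1c, the Artemis nuclease that opens the hairpin ends left by RAG, fell to 7.68 ± 1.49 FPKM in Aa-cko, against 13.6 ± 1.73 FPKM in Aa-flox (log2 -0.75 ± 0.16 SE). Xrcc6, the Ku70 subunit that binds broken ends, fell by 0.61 ± 0.12, Hmgb1, a DNA-bending cofactor of RAG, by 0.59 ± 0.10, and Lig4, the ligase that seals the joint, by 0.59 ± 0.19. Poll, a gap-filling polymerase of the same family as Dntt, rose to 1.84 ± 0.53 FPKM in Aa-cko, against 0.758 ± 0.159 FPKM in Aa-flox. Poll reached 1 FPKM in every Aa-cko library and in no Aa-flox library, so it entered the test through Aa-cko alone. Its relative Polm and the kinase gene Prkdc gave log2 0.10 and 0.03 and did not pass. These enzymes serve DNA repair in all cells, and their values do not belong to lymphocyte precursors alone.

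Of 9 tested regulators of the Rag locus and of lymphoid precursors, 4 were lower, 1 higher and 4 did not pass. Over all tested genes 23.2% were lower and 19.2% higher. Foxo1, which drives Rag transcription in B cell precursors, fell to 16.3 ± 3.54 FPKM in Aa-cko, against 58.9 ± 6.86 FPKM in Aa-flox (log2 -1.81 ± 0.16 SE, adjusted p = 5.41e-05). Myb, a factor of immature haematopoietic cells, fell by 1.73 ± 0.19, Ikzf1, the Ikaros factor of lymphoid development, by 1.34 ± 0.17, and Satb1, a chromatin organizer of thymocytes, by 0.98 ± 0.19. Ikzf3, the Aiolos factor of later lymphocyte stages, rose by log2 0.51 ± 0.15. The E protein genes Tcf3, Tcf12 and Tcf4 did not pass (log2 -0.11, -0.38 and 0.24), whereas of their inhibitors Id3 fell by 1.67 ± 0.11, Id1 rose by log2 0.75 ± 0.20 and Id2 gave 0.01.

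**Figure D4:**
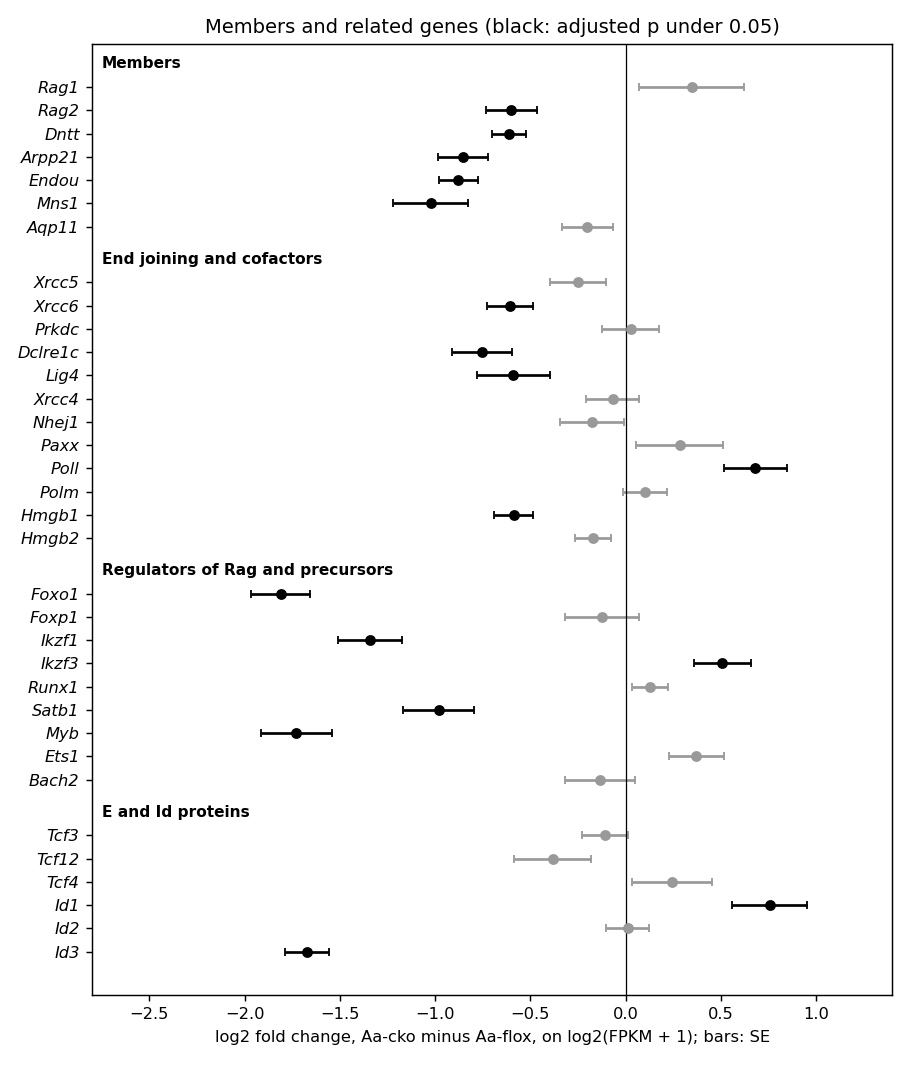
Log2 fold change on log2(FPKM + 1), Aa-cko minus Aa-flox (x axis; points with SE bars, 3 libraries a group), of tested members and of genes of end joining, regulation and E and Id proteins (y axis). Black points passed an adjusted p of 0.05; Rag1 and Aqp11 are grey, and the lowest values are those of Foxo1, Myb and Id3.

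Genes of Notch signalling and T lineage commitment were mixed. Of 12 tested, 5 were lower, 3 higher and 4 did not pass, with a median of -0.07. Over all tested genes 23.2% were lower and 19.2% higher. Il2ra, a receptor chain of early thymocytes and of activated cells, fell by 1.52 ± 0.14, Tcf7, a factor of T cell commitment, by 1.22 ± 0.10, and Notch1, the receptor that starts the T cell program, by 0.66 ± 0.14 (SE). Notch targets went both ways: Nrarp and Dtx1 rose by log2 1.01 ± 0.13 and 0.95 ± 0.15, and Hes1 fell by 0.50 ± 0.15 (adjusted p = 0.0218). Heyl, another target and under the filter, averaged 0.101 FPKM in Aa-cko and 0.518 FPKM in Aa-flox without overlap. Spib, a factor of B cells and plasmacytoid dendritic cells, rose by log2 1.27 ± 0.13. Genes of group 2 innate lymphoid cells, which share Gata3, Tcf7 and Bcl11b with T cells, had 4 higher, 5 lower and 3 not past of 12.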

How the data were processed

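The source was 1 table of FPKM values for 21965 genes in 6 libraries, computed by the authors and deposited without read counts. Per the submitters' processing notes the build was mm10; which aligner, quantifier or annotation was used is not given in the sources used here. Libraries came from total RNA by a SMARTer mRNA kit, per the labels' protocols. Positions and exon lengths came from GENCODE M21 (GRCm38), in which 21806 gene identifiers were found, and promoters from RefSeq (GRCm38.p6).

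The test of Aa-cko minus Aa-flox used limma 3.58.1 (R 4.3.3; trend, robust, two-sided) on log2(FPKM + 1), over genes that reached 1 FPKM in 3 or more libraries, with p-values adjusted by Benjamini and Hochberg over all 10849 genes and a threshold of 0.05. Genes under the filter and differences between members had exact permutation tests (scipy 1.17.1). Depth was searched from 4 to 26 M fragments; FPKM gives no counts, so no count test was run. On simulated data for this comparison (10769 genes), the recovery was 85.1% for 1.5-fold, 98.5% for 2-fold and 100% for 4-fold changes. Of 205 calls, 16 were false. The simulation changed 67, 67 and 66 genes, whereas 42.4% of tested genes were called in the data. It gave every gene the same dispersion and held no exon length trend. Its changed genes all had higher means than Rag2 and Aqp11. These rates therefore need not hold for the members. Members, 14 lists and tests were chosen with earlier results of these data known. Named are all members, of each list up to 6 tested genes with the smallest p, markers at or near 0, and the 5 genes most like Rag1 and like Dntt; other genes named were chosen after their values were seen. Lists are given by counts and medians, with no set test.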

Additional observations from a re-analysis of the deposited data

How the results depend on the processing

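Rag2, Dntt, Arpp21, Endou and Mns1 stayed lower and past the threshold, and Rag1 and Aqp11 stayed outside it, in every alternative that could test them (other pseudocounts, filters, scalings and variance models, the replicate block, leaving out each library, and the length trend removed). A mean filter of 3 FPKM left out Rag2 and Aqp11, so that 4 members were lower. Over these alternatives the log2 fold change of Rag1 ran from 0.07 to 0.58, with adjusted p from 0.0936 (replicate block) to 0.848, and that of Mns1 from -1.26 to -0.87. With a pseudocount of 0.1, values relative to the CD3 genes moved to -0.58 for Rag2 and, changing sign, to -0.31 for Ptcra, against 0.13 with a pseudocount of 1 and -0.0018 with 0.5. Leaving out 1 library gave 1502 to 2109 higher and 1793 to 2735 lower genes over the whole table, and 5 lower members each time. Over all alternatives, 42 to 55 genes of the lists were higher and 53 to 57 lower, against 52 and 55 as reported. Values relative to the CD3 genes were not run under the filters, quantile normalization, other variance models or the block. Same-numbered libraries of both groups correlated at -0.02, 0.19 and 0.52 in their deviations from group means, so the numbers were not taken as pairs; with the replicate block 2451 genes were higher and 3058 lower. A change of the genes that stand for T cell RNA shifts the relative value of every gene by the same amount. The mean of Trac, Trbc1 and Trbc2 was lower by 0.99 in Aa-cko, and that of the CD3 genes by 0.36. All members thus moved up equally with that change. Endou, Arpp21, Dntt and Rag2 changed sign, to 0.11, 0.14, 0.38 and 0.39, and Mns1 moved to -0.03. Relative to the mature T cell list no value moved by more than the spread between libraries. Ptcra and Igll1 rest on few or no inferred fragments.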
